A study of Mus musculus with 8 samples.

Results

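Calvarial osteoblastic cells lacking Def6 were compared before and after 12 days of osteogenic culture, in 2 libraries of day 12 and 2 libraries of day 0. Every gene with a mean of at least 1 CPM (the reads of a gene scaled to a common library total) in either day was described, which gave 12187 of the 24421 genes in the files. The cells were taken by collagenase and dispase digestion from the skull bones of newborn C57BL/6 mice, either homozygous for a Def6 deletion in every cell of the body (Def6-/-) or wild type (WT, littermates per the study's methods). Both genotypes were expanded without ascorbic acid and then differentiated with ascorbic acid and β-glycerophosphate, and poly-A RNA of whole cultures was sequenced. The question was how gene expression moved along osteoblast differentiation when Def6 was absent, and the 4 WT libraries served to show where that movement differed. Nothing in the labels tells whether the 2 libraries of a group came from separate litters, and the study's methods call them biological replicates, so p-values measure only the spread between these libraries.

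Osteoblasts are the bone-forming cells. They secrete a matrix rich in type I collagen, for whose folding ascorbic acid is needed, and then mineralize it with the help of phosphatases that release phosphate from substrates such as β-glycerophosphate. Cells that become buried in the matrix turn into osteocytes, and the whole course is steered by Wnt, BMP, IGF and parathyroid hormone signals. Def6 encodes a guanine nucleotide exchange factor for small GTPases that is known chiefly from lymphocytes and macrophages. Type I interferons act on neighboring cells through their receptor and switch on interferon stimulated genes, many of which restrain viruses.

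Def6 (GRCm38.p6 chr17:28207456-28228608) had 0 and 1 reads in the Def6-/- libraries of day 0 and 2 and 2 reads in those of day 12, against at least 112 reads in each WT library, so the genotype labels matched the reads. The Def6-/- libraries held between 2414856 and 2781030 reads on genes. Replicates differed beyond sampling noise in each group, with a chi-square per gene of 4.95 and 4.53 at day 0 and day 12 of Def6-/- cells but of 34.3 at day 0 of WT cells, where replicate 1 stood apart by its ribosomal protein genes. Because all 8 libraries share a single estimate of the spread, the WT libraries of day 0 bear on every p-value below. Values are normalized CPM, in which the reads of a gene are scaled to the library's reads on the genes tested, with TMM factors. Genes held only 28.8% to 35.3% of all reads of a library. Normalized CPM are therefore higher than the deposited CPM, on which the minimum of 1 CPM was set, and the scales should not be compared directly. Changes are differences of log2(normalized CPM + 1) between day 12 and day 0, given with their standard error. For genes with few reads this scale makes the change look smaller than the ratio of the values.

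Regulatory sequence is shown for genes of 3 groups described below, those that respond to interferon, those that build the bone matrix and those that copy DNA. The windows are RefSeq promoters of GRCm38.p6 on the coding strand, from 250 bases before to 50 bases after the start of the gene. The capitals mark matches, on either strand, to the core of the interferon stimulated response element (GAAA, any 2 bases and GAAA again) in the first 3 genes. They mark AACCACA, the site that Runx factors bind, in the next 3, of which Ibsp holds no match, and TTTCCCGC or TTTGGCGC, sites of E2F factors, in the last 2. Dmp1 has a further promoter with no match. These genes were chosen after their values were seen.
Slfn5 (chr11:82951852-82952151, plus strand): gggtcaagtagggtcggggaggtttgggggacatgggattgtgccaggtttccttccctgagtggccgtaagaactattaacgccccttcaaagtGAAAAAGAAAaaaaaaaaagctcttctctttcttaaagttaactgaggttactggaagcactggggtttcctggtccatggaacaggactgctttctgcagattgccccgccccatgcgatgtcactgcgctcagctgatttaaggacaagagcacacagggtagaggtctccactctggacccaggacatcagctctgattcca
Isg15 (chr4:156200769-156201068, minus strand): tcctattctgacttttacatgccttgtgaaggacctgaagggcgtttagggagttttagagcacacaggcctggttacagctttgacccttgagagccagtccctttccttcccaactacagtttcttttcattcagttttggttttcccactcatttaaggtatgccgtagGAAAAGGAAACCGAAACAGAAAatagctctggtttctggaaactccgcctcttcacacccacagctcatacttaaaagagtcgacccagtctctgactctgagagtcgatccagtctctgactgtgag
Ifit3 (chr19:34583279-34583578, plus strand): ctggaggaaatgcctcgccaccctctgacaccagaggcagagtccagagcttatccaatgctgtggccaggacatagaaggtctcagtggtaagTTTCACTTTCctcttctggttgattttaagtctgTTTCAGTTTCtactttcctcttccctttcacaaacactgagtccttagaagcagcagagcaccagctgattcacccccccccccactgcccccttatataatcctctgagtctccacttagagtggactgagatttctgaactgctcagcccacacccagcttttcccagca
Dmp1 (chr5:104202367-104202666, plus strand): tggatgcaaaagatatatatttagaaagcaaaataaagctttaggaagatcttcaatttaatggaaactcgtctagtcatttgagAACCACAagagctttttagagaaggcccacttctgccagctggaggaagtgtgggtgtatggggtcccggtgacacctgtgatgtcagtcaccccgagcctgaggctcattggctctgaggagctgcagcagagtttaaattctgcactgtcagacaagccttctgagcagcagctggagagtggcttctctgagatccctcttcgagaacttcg
Mmp13 (chr9:7272264-7272563, plus strand): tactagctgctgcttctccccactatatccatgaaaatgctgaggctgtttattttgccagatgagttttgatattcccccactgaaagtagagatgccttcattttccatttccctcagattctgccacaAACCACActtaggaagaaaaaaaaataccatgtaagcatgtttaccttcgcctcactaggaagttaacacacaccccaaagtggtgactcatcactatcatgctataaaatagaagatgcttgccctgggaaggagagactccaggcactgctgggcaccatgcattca
Ibsp (chr5:104299037-104299336, plus strand): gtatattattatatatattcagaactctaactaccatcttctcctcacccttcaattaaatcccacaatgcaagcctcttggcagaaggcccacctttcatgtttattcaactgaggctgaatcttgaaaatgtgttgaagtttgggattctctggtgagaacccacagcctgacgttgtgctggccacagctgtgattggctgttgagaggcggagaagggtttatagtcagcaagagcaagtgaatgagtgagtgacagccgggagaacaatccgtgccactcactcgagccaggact
Cdc6 (chr11:98907901-98908200, plus strand): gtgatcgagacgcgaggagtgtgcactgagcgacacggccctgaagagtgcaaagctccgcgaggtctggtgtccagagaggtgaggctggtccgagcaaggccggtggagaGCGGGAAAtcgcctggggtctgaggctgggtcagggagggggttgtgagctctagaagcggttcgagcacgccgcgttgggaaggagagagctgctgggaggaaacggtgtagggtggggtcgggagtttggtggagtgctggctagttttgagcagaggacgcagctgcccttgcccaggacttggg
Mcm5 (chr8:75109259-75109558, plus strand): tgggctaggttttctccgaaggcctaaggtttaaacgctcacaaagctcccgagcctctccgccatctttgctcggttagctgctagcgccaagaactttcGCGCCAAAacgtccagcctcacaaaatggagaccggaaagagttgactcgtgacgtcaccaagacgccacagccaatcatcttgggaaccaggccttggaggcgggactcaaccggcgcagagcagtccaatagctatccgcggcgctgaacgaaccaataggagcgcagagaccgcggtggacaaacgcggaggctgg
The interferon response core was present in 25 of the 55 promoters (45.5%) of the interferon stimulated genes described here and in 3.44% of all 32851 promoters of the table, its matches overlapping in Isg15. AACCACA was found in 3 of 24 promoters of bone matrix genes (12.5%) and in 5.27% of all promoters, and the interferon response core was also in 3 of those 24. The E2F sites occurred in 9 of 33 promoters of DNA replication genes (27.3%), against 1.56% of all. A match is a description of the letters in the window and not of binding, and a window was at hand for 47 of 61 interferon stimulated genes, 20 of 28 bone matrix genes and 28 of 32 DNA replication genes.

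Along the differentiation of Def6-/- cells 1472 genes rose and 588 fell (limma, adjusted p under 0.05), 12.1% and 4.82% of the genes described, the background for each group below. The median log2 change was 1.88 among the former, -1.14 among the latter and 0.01 over all genes. Changes beyond 2 on the log2 scale were found for 658 of the higher genes and 89 of the lower ones. Both libraries of day 12 lay above both of day 0 in 35.1% of the genes and below them in 32.7%. Of the genes described, 875 met the minimum only at day 12, and 519 of these were called higher, while 306 met it only at day 0, of which 66 were called lower. Such genes had to differ in that direction to enter. Among the 11006 genes that met the minimum at both days, 953 were higher and 522 lower, the background for group members that met it at both days. When a WT library of day 0 was left out, the calls rose to 2432 higher and 1846 lower (without replicate 1) or 2444 and 1862 (without replicate 2), and leaving out a Def6-/- library of either day lowered them to between 752 and 910 higher and between 125 and 238 lower. Without replicate 2 of WT day 12, 358 genes were lower.

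**Figure D1:**
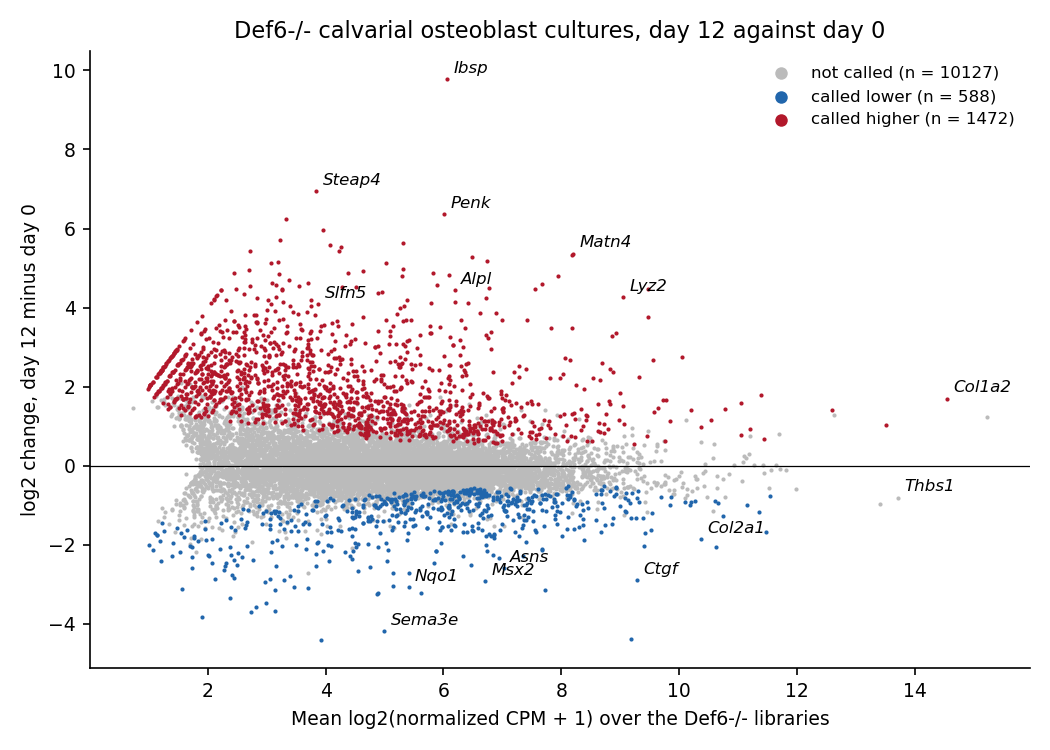
Change of each of the 12187 genes between day 12 and day 0 of Def6-/- cells (y axis, log2) against its mean level over the 4 Def6-/- libraries (x axis, log2(normalized CPM + 1)). Red points are the 1472 genes called higher, blue points the 588 called lower and grey points the 10127 others, and Ibsp stands highest at 9.79.

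Genes for the proteins of the bone matrix rose. In whole cultures more cells of a type and more RNA per cell cannot be told apart, here and in every group below. Of the 28 listed genes that met the minimum, 19 were higher and 0 were lower, with a median change of 2.39 beside 0.01 for all genes. Among the 20 that met it at both days, 11 were higher (median 1.45). Ibsp encodes bone sialoprotein, a matrix protein that binds mineral, and was at 1.51 and 1.02 normalized CPM at day 0 and at 2491 and 1590.0 at day 12. Both libraries of day 12 were far above those of day 0, a change of 9.79 ± 0.73 (limma, adjusted p = 7.58e-05). Dmp1, a phosphoprotein of osteocytes and late osteoblasts, was at 1.88 and 0.341 normalized CPM at day 0 and at 91.3 and 161 at day 12. The change of Dmp1 was 5.96 ± 0.81 (limma, adjusted p = 0.00149), and the replicates of a day differed from each other while the days did not overlap. Bglap encodes osteocalcin, a matrix protein of mature osteoblasts, and had 0 and 0 reads at day 0 but 46 and 33 reads at day 12. It was thus at least 14.6-fold higher at day 12, counted against 3 reads per library of day 0, and its near-identical neighbor Bglap2 rose at least 16-fold, although the counting could have split the reads of this pair. Ifitm5, a membrane protein of osteoblasts that is mutated in a brittle bone disease, was at least 18.4-fold higher.

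Collagens and small proteoglycans were among the members that rose. Col1a2, a chain of type I collagen, was at 12767 and 13878 normalized CPM at day 0 and at 46469 and 40239 at day 12, and rose by 1.70 ± 0.33 (limma, adjusted p = 0.0081). Its partner chain Col1a1 was at 23645 and 26703 normalized CPM at day 0 and at 63811 and 54458 at day 12, and its change of 1.23 ± 0.42 did not pass the test (limma, adjusted p = 0.0802), although both libraries of day 12 were above both of day 0. Col22a1 and Col24a1, minor collagens, rose by 5.15 ± 0.46 and 4.04 ± 0.29. Of the leucine-rich proteoglycans, which bind collagen fibrils, lumican (Lum) rose by 3.75 ± 0.25, osteomodulin (Omd) by 3.59 ± 0.34 and decorin (Dcn) by 3.35 ± 0.19. Sparc, the collagen-binding glycoprotein osteonectin, rose by 1.02 ± 0.25. Spp1, which encodes osteopontin, was at 3724 and 2661 normalized CPM at day 0 and at 2572 and 3342 at day 12. The days overlapped for Spp1, with a change of -0.10 ± 0.44, and biglycan (Bgn), a further leucine-rich proteoglycan, changed by -0.10 ± 0.20, neither of which passed.

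Mineralization genes moved in both directions. Of 15 that met the minimum, 8 were higher and 2 lower (median 1.17), and 4 of the higher ones met it only at day 12, while of the 11 that met it at both days 4 were higher and 2 lower (median 0.41). Alpl encodes tissue-nonspecific alkaline phosphatase, which breaks down the mineralization inhibitor pyrophosphate, and was at 13.2 and 16.4 normalized CPM at day 0 and at 390.0 and 299 at day 12. All values of day 12 exceeded those of day 0, with a change of 4.45 ± 0.22 (limma, adjusted p = 1.91e-05). Phospho1, a phosphatase that works inside matrix vesicles, rose by 3.17 ± 0.23, Phex, an endopeptidase of phosphate balance, by 4.47 ± 0.47, and Smpd3, a sphingomyelinase needed for bone mineral, by 4.93 ± 0.30. Slc20a1, a phosphate transporter, was at 307 and 146 normalized CPM at day 0 and at 59.2 and 44.9 at day 12. Both libraries of day 12 were lower, a change of -2.01 ± 0.39 (limma, adjusted p = 0.0081), and the proteoglycan Gpc3 fell with a change of -0.95 ± 0.20. Enpp1 and Ank, which supply pyrophosphate, changed by 0.22 ± 0.56 and 0.41 ± 0.31 and did not pass.

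**Figure D2:**
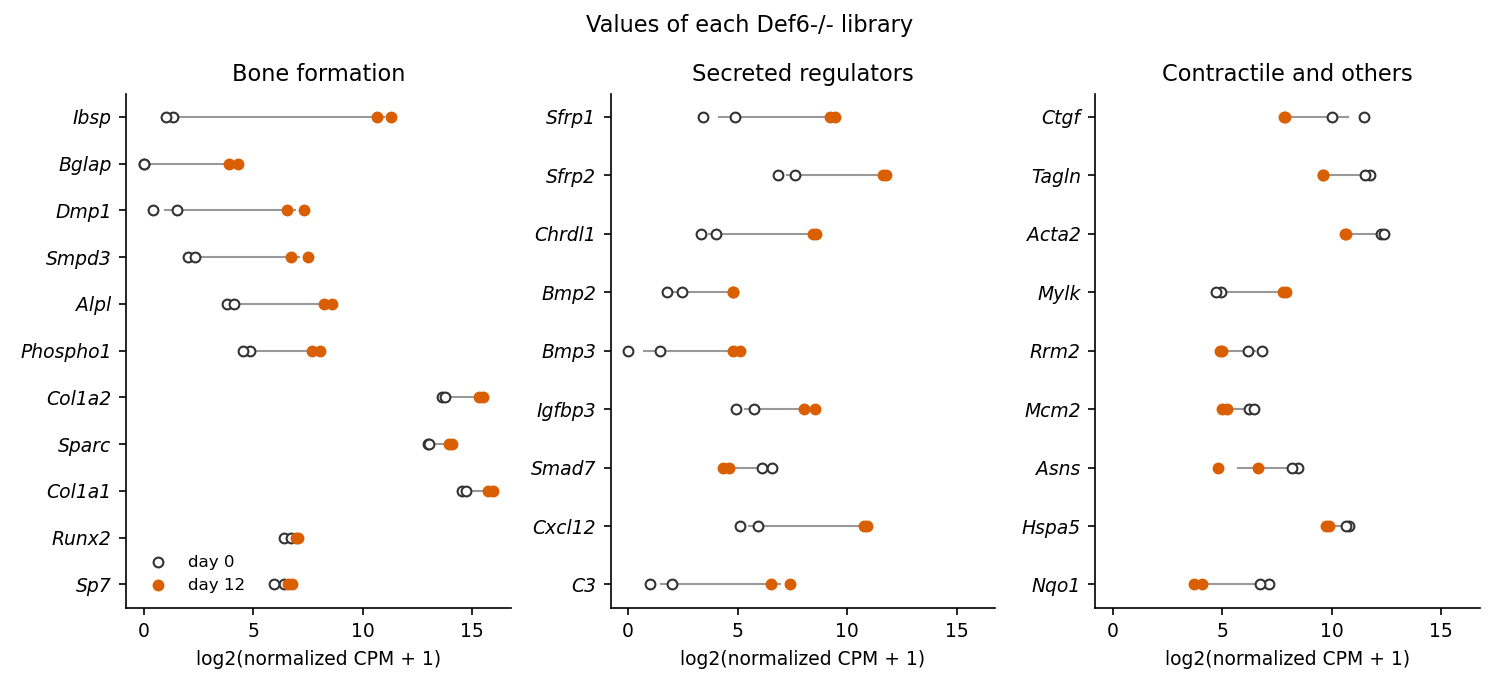
Normalized CPM of each Def6-/- library for 29 genes (x axis, log2(normalized CPM + 1)), with open circles for the 2 libraries of day 0, filled circles for the 2 of day 12 and a grey line joining the means. Ibsp moved farthest, the circles of Runx2 and Sp7 lie close together, and Ctgf, Tagln and Acta2 lie lower at day 12.

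Of 25 transcription factors of the lineage that met the minimum, 4 were higher and 1 lower, with a median change of 0.05. These are shares of 16% and 4%, near the 12.1% and 4.82% of all genes, and 1 of the 4 met the minimum only at day 12. Runx2, the master factor of the osteoblast lineage, was at 85.2 and 105 normalized CPM at day 0 and at 124 and 132 at day 12, and its change of 0.43 ± 0.31 did not pass (limma, adjusted p = 0.4). Sp7, which acts downstream of Runx2, was at 84.8 and 61.8 normalized CPM at day 0 and at 107 and 96.2 at day 12, a change of 0.48 ± 0.29 that did not pass either. The factors that rose were Dlx3 (3.51 ± 0.36), a homeobox factor of mineralized tissue, Mef2c (2.49 ± 0.29), which drives Sost in osteocytes, the Wnt effector Tcf7 (2.32 ± 0.30) and the circadian repressor Bhlhe41 (2.15 ± 0.32), and 7 factors rose without either WT library of day 0. Msx2, a homeobox factor of skull progenitors, was at 296 and 278 normalized CPM at day 0 and at 32.5 and 41.9 at day 12. It fell in both libraries, a change of -2.93 ± 0.22 (limma, adjusted p = 8.04e-05).

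Of 18 osteocyte genes that met the minimum, 9 were higher and 2 lower (median 0.98), and 7 of the higher ones met it only at day 12, while of the 11 that met it at both days 2 were higher and 2 lower (median 0.52). Sost encodes sclerostin, the Wnt antagonist of osteocytes, and had 0 and 0 reads at day 0 and 14 and 12 at day 12, at least 4.82-fold higher. Another Wnt antagonist, Dkk1, had 0 and 0 and then 20 and 20 reads, at least 7.42-fold higher, and Mepe, a phosphoprotein of osteocytes, was at least 5.97-fold higher. Hpgd, which degrades prostaglandins, rose by 4.71 ± 0.32. The adhesion receptor Cd44 fell with a change of -1.60 ± 0.20, and the potassium channel Kcnk2 was the other that fell. Tnfrsf11b, the decoy receptor of the osteoclast-inducing ligand RANKL, changed by -0.97 ± 0.30 and did not pass.

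Among secreted Wnt and BMP regulators, 14 of 35 were higher and 3 lower (median 0.93). Of the 14, 6 met the minimum only at day 12, and among the 25 genes that met it at both days 8 were higher and 3 lower (median 0.50). Sfrp1 and Sfrp2, secreted Frizzled-like proteins that bind Wnt ligands, showed large changes. Sfrp2 was at 115 and 195 normalized CPM at day 0 and at 3154 and 3510.1 at day 12 and Sfrp1 at 9.8 and 28.3 normalized CPM at day 0 and at 588 and 696 at day 12. Both rose in each library, by 4.47 ± 0.30 and 5.17 ± 0.45 (limma, adjusted p = 5.03e-05 and 0.000176). Frzb and Sfrp4 of the same family rose by 3.92 ± 0.45 and 3.07 ± 0.44, and the Wnt enhancer Rspo2 by 3.68 ± 0.40. Chordin-like 1 (Chrdl1), a BMP antagonist, was at 9.05 and 15.4 normalized CPM at day 0 and at 350.1 and 378 at day 12 and rose by 4.83 ± 0.33. Bmp2 and Bmp3 rose by 2.66 ± 0.38 and 4.24 ± 0.53, of which the former stimulates and the latter restrains bone formation. The inhibitory Smad proteins Smad6 and Smad7, which are targets of the pathway they inhibit, fell, with changes of -1.25 ± 0.19 and -1.88 ± 0.28.

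Of 24 receptor genes 4 were higher and 2 lower (median 0.46), shares of 16.7% and 8.33% near the 12.1% and 4.82% of all genes, and 1 of the 2 lower ones met the minimum only at day 0. Pth1r, the parathyroid hormone receptor, was at 34.3 and 32.1 normalized CPM at day 0 and at 241 and 169 at day 12, and rose by 2.57 ± 0.24 (limma, adjusted p = 0.000238), and Lifr, a receptor of the interleukin 6 family, rose by 2.15 ± 0.37. Igf1r was at 276 and 296 normalized CPM at day 0 and at 82.3 and 84.3 at day 12, a lower level in both libraries with a change of -1.77 ± 0.21. Leaving out any Def6-/- library or WT day 12 replicate 1 left 1 or 2 receptor genes higher, and leaving out either WT library of day 0 gave 11. In the IGF axis 6 of 18 genes were higher and 2 lower (median 0.55), shares of 33.3% and 11.1%. The ligand Igf1 rose by 2.23 ± 0.36, and the binding proteins Igfbp3, Igfbp4 and Igfbp5 rose by 2.96 ± 0.31, 1.80 ± 0.20 and 2.68 ± 0.46, while Igf2 changed by 0.10 ± 0.24 and did not pass. Pappa, a protease that cleaves IGF binding proteins, fell with a change of -1.62 ± 0.36.

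Enzymes that process collagen moved in both directions. Of 28 genes, all of which met the minimum at both days, 7 were higher and 3 lower (median 0.34). These are shares of 25% and 10.7%, beside 12.1% and 4.82% of all genes. Of the 11006 genes that met the minimum at both days, 953 were higher and 522 lower. The procollagen proteases Adamts2, Tll1 and Bmp1 rose by 2.22 ± 0.23, 2.43 ± 0.20 and 0.73 ± 0.16. P3h3, of the prolyl 3-hydroxylase family, rose too (1.33 ± 0.17), as did Crtap (0.91 ± 0.16). The crosslinking oxidases Lox and Loxl2 fell, with changes of -0.77 ± 0.22 and -0.74 ± 0.20, as did the lysyl hydroxylase Plod3 (-0.71 ± 0.16). Serpinh1, the collagen chaperone, changed by 0.01 ± 0.20 and did not pass. Without Def6-/- day 0 replicate 1, 2 or day 12 replicate 1, 3 or 4 of the 7 stayed past the threshold, and 11 genes of the list were higher without either WT library of day 0.

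**Figure D3:**
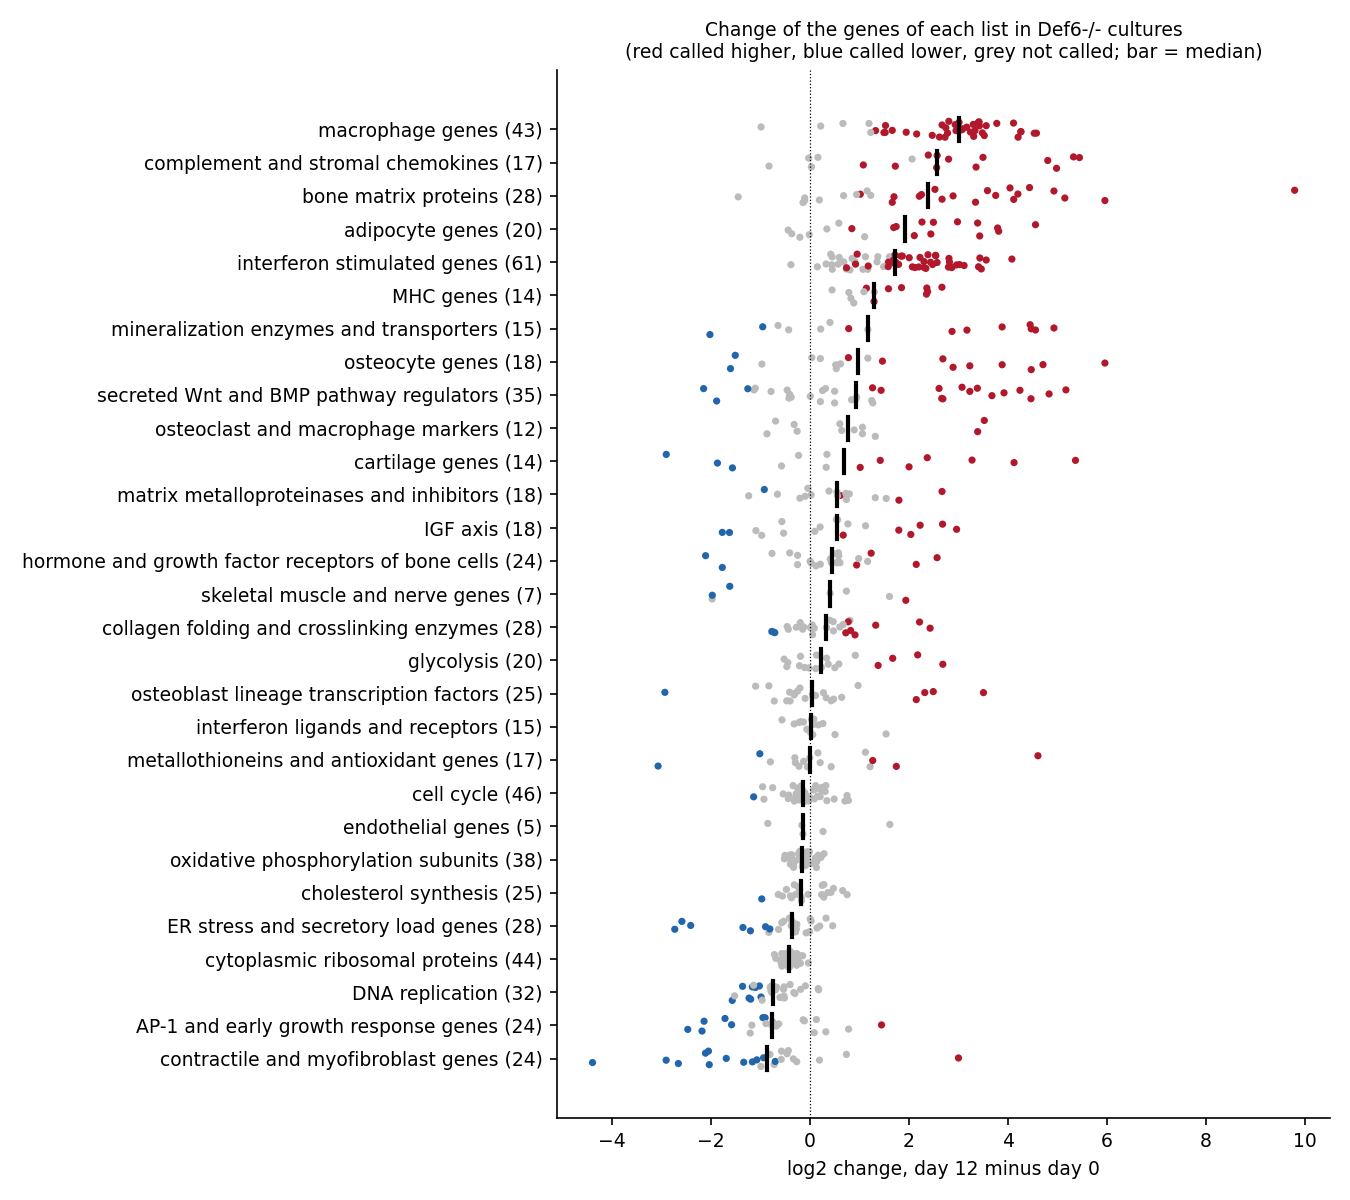
Change of each gene of the 29 lists with at least 5 genes above the minimum (x axis, log2 change between day 12 and day 0 of Def6-/- cells), with the number of genes in parentheses, red for genes called higher, blue for called lower and grey for others. Black bars are medians, which run from 3.01 for macrophage genes to -0.87 for contractile genes, and the dotted line is the median of all genes.

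Contractile and myofibroblast genes fell. Of 24 that met the minimum, 12 were lower and 1 higher, against 4.82% lower in the background, with a median of -0.87. Ctgf, a matricellular protein, was at 2859 and 1016 normalized CPM at day 0 and at 232 and 224 at day 12. The change was -2.90 ± 0.70 (limma, adjusted p = 0.023), with day 0 replicates that differed between themselves but both above day 12. The smooth muscle actin Acta2 and the actin crosslinker Tagln fell, with changes of -1.69 ± 0.30 and -2.05 ± 0.47, and so did Cyr61, of the same family as Ctgf (-2.03 ± 0.36). Mylk, the kinase of myosin light chain, rose by 3.00 ± 0.19. Between 3 and 6 genes of this list were lower when 1 Def6-/- library was left out, and 19 without either WT library of day 0.

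Early response genes of the AP-1 and EGR families were lower for 7 of 24 (29.2%, against 4.82% of all genes) and higher for 1 (median -0.76). Dusp1, a MAP kinase phosphatase, was at 153 and 116 normalized CPM at day 0 and at 28.4 and 19.2 at day 12, a change of -2.46 ± 0.28 (limma, adjusted p = 0.000664). Fosl1, Maff, Ier3, Egr1, Fosl2 and Fos were the others that fell, with log2 changes between -2.18 and -0.90. Atf3, a stress-induced member, rose by 1.45 ± 0.40. The count of lower genes was between 2 and 6 when 1 Def6-/- library was left out and 15 without either WT library of day 0.

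Genes of DNA replication were lower for 8 of 32 (25%, against 4.82% of all genes) and higher for 0, with a median of -0.75. Rrm2, the ribonucleotide reductase subunit that limits nucleotide supply, was at 70.9 and 113 normalized CPM at day 0 and at 30.4 and 28.7 at day 12, a change of -1.56 ± 0.31 (limma, adjusted p = 0.00845) with day 0 above day 12 in both libraries. These calls rest on each library: 1 gene of the list was lower without Def6-/- day 0 replicate 1 and 0 without any other Def6-/- library, against 17 without either WT library of day 0, 5 without WT day 12 replicate 1 and 3 without its replicate 2. Licensing factors and helicase subunits that fell were Cdc6 (-1.36 ± 0.34), Cdt1 (-1.02 ± 0.26), Mcm2 (-1.23 ± 0.36), Mcm3 (-1.10 ± 0.30), Mcm5 (-1.16 ± 0.28) and Mcm10 (-1.19 ± 0.33), with the polymerase subunit Pold1 (-0.98 ± 0.27). Of these, Cdc6, Cdt1, Mcm3, Mcm5 and Pold1 held an E2F site in the promoter window. Of 46 cell cycle genes, which include those of mitosis, 1 was lower, the S phase cyclin Ccne1 (-1.13 ± 0.32), and 0 were higher (median -0.13). Mki67, the marker of proliferating cells, was at 43 and 108 normalized CPM at day 0 and at 42 and 81.3 at day 12, with overlapping days.

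Some stress genes fell. Of 28 genes of endoplasmic reticulum stress and secretory load, 7 were lower (25%, against 4.82% of all genes) and 0 higher (median -0.36). Asns, the asparagine synthetase, was at 352 and 287 normalized CPM at day 0 and at 99.1 and 27.4 at day 12, a change of -2.58 ± 0.48 (limma, adjusted p = 0.00667) that did not pass without day 0 replicate 1. The replicates of day 12 differed from each other, and the same held for Trib3, a pseudokinase induced by stress (136 and 87 normalized CPM at day 0, 44 and 5.13 at day 12), and for Chac1 (85.2 and 65.2, then 30 and 5.56). The chaperones Hspa5 and Hyou1, which fold secreted proteins, fell, with changes of -0.89 ± 0.22 and -1.35 ± 0.16, and Xbp1, a factor of the unfolded protein response, changed by 0.15 ± 0.23 and did not pass. The count of lower genes was 1 or 2 without Def6-/- day 0 replicate 1 or 2 or day 12 replicate 2, 6 without day 12 replicate 1, 4 without WT day 12 replicate 2 and 15 without either WT library of day 0.

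Housekeeping lists of metabolism differed in their share of calls, which was 12.1% higher and 4.82% lower over all genes. In the cytoplasmic ribosomal protein list 0 of 44 genes passed in either direction, with a median of -0.41, and in 36 of them both day 12 libraries were lower, as they were in 32.7% of all genes. Oxidative phosphorylation subunits had 0 of 38 calls (median -0.15). Glycolysis genes were higher for 4 of 20 (20%), Aldoc, Slc16a3, Pdk1 and Pfkfb3, by between 1.38 and 2.69, and lower for 0. Of the 4, 1 met the minimum only at day 12, and 1 to 3 passed without Def6-/- day 0 replicate 1 or 2 or day 12 replicate 1. In the cholesterol list 1 of 25 genes was lower and 0 were higher (median -0.17). Of 17 metallothionein and antioxidant genes 3 were higher and 2 lower (median -0.000443), shares of 17.6% and 11.8%. Among those, the extracellular superoxide dismutase Sod3 rose by 1.75 ± 0.20, catalase (Cat) by 1.27 ± 0.26 and the selenoenzyme Gpx3 by 4.61 ± 0.28. The quinone reductase Nqo1, a target of the antioxidant factor NRF2, was at 142 and 104 normalized CPM at day 0 and at 15.6 and 12 at day 12, a lower level in both libraries with a change of -3.06 ± 0.24, and the thioredoxin reductase Txnrd1 fell as well (-1.01 ± 0.20).

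Interferon stimulated genes rose during differentiation without Def6. Of 76 listed genes 61 met the minimum, 40 of these were higher and 0 lower, and the median change was 1.73. Among the 42 that met it at both days 23 were higher (median 1.37). Slfn5, a member of the Schlafen family that is induced by interferon, was at 1.88 and 3.41 normalized CPM at day 0 and at 65.8 and 53.5 at day 12. Both libraries of day 12 lay above those of day 0, a change of 4.08 ± 0.31 (limma, adjusted p = 8.98e-05). Isg15, a ubiquitin-like modifier, was at 1.13 and 5.12 normalized CPM at day 0 and at 42.4 and 35.5 at day 12 and Ifit1, which binds viral RNA, at 1.51 and 5.8 normalized CPM at day 0 and at 36.6 and 50 at day 12. They rose by 3.46 ± 0.59 and 3.41 ± 0.55 (limma, adjusted p = 0.00439 and 0.00338), with day 0 replicates that differed from each other but stayed below day 12. Irf7, the transcription factor that amplifies interferon production, was at 1.13 and 4.09 normalized CPM at day 0 and at 15.6 and 13.3 at day 12. It rose by 2.22 ± 0.47 and Ifit2 by 1.71 ± 0.36. Without Def6-/- day 0 replicate 1 or either day 12 replicate neither of these genes passed. Over the list, the count of higher genes was 27 without Def6-/- day 0 replicate 1, 32 without its replicate 2, 21 and 24 without day 12 replicates 1 and 2, and 52 without either WT library of day 0, with 0 lower in each case. Eif2ak2, which encodes the double-stranded RNA kinase PKR, was at 24.1 and 36.5 normalized CPM at day 0 and at 58 and 55.2 at day 12, and its change of 0.91 ± 0.32 did not pass (limma, adjusted p = 0.0875). Mx1 had 0 and 0 reads at day 0 and 1 and 1 at day 12, too few for a test, and Cxcl10 had 1 and 1 and then 4 and 5. Several members, such as those of the Ifit, Gbp and Iigp families, have close copies among which reads cannot be told apart with certainty.

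Of 15 genes for interferon receptors, their kinases and suppressors, and the proteins that sense nucleic acid, 0 passed in either direction, and the median change was 0.03. Ifnar1 was at 89.7 and 99 normalized CPM at day 0 and at 106 and 107 at day 12 and Ifnar2 at 35.4 and 43.7 normalized CPM at day 0 and at 60.1 and 53 at day 12, with changes of 0.18 ± 0.17 and 0.51 ± 0.23 that did not pass, although day 12 was above day 0 in each. Ifnb1, the interferon β gene, had 0 and 0 reads at day 0 and 2 and 0 at day 12, and was below the minimum. Tlr3, a sensor of double-stranded RNA, had the largest of the 15 changes, 1.54 ± 0.46 (limma, adjusted p = 0.0506).

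Macrophage genes rose beside the interferon stimulated genes. Of 43 that met the minimum, 38 were higher and 0 lower, with a median of 3.01, and 27 of the 31 that met it at both days were higher. The summed level of the list was between 434 and 571 normalized CPM in the day 0 libraries and between 5673 and 6402 in those of day 12. Lyz2, lysozyme, was at 87.8 and 164 normalized CPM at day 0 and at 2488 and 2159 at day 12, and Mrc1, the mannose receptor, at 8.67 and 14.3 normalized CPM at day 0 and at 295 and 284 at day 12. They rose by 4.26 ± 0.42 and 4.58 ± 0.34. C1qa, a complement component made by macrophages, rose by 3.09 ± 0.49, Tyrobp, a signalling adaptor of myeloid receptors, by 3.07 ± 0.36 and the protease Ctss by 4.11 ± 0.33. Every listed macrophage gene had reads in at least 1 Def6-/- library. The part of macrophages in the rise of the interferon stimulated genes was not tested. Markers of other blood cells were scarce: of 14 lymphocyte genes in the files, 2 met the minimum, Cd22 and Cd4, both only at day 12 and so bound to be higher there, while 9, among them Cd3e and Cd79a, had no read in these cells, and of 16 neutrophil and mast cell genes 0 met it. Of 3 erythroid and megakaryocyte genes above the minimum 1 was lower, Ppbp (-1.76 ± 0.47), which entered only through day 0, and of 5 endothelial genes 0 passed (median -0.14). Among 7 skeletal muscle and nerve genes S100b rose by 1.94 ± 0.47, and Ncam1 and Tubb3 fell, with changes of -1.61 ± 0.21 and -1.97 ± 0.26 (median 0.41).

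Deposited values of 9 macrophage and osteoclast markers, Acp5, Adgre1, Cd14, Csf1r, Ctsk, Fcgr3, Itgam, Itgb3 and (named for this reason) Ptprc, did not all equal whole reads, unlike 99.957% of the 114821 positive values of the files. Of their 49 such values 24 were in the Def6-/- libraries, 17 of these at day 12, and 29 became whole after multiplication by 10 and 12 after multiplication by 100. As deposited, 0 of the 8 that met the minimum were called. Csf1r, the receptor of the macrophage growth factor, was at 21.5 and 26.6 normalized CPM at day 0 and at 12.3 and 13.1 at day 12, a change of -0.86 ± 0.36 that did not pass. With the values that a multiplication made whole, it was at 123 and 131 at day 12 and its change was 2.36 (limma, adjusted p = 0.00214), so the direction of this gene depends on the multiplication, and the same was true of Cd14 with 2.61 (limma, adjusted p = 0.00729). Fcgr3 and Itgam changed by 0.64 and 0.61 as deposited and by 3.78 and 3.75 after it, although 1 value of Itgam at day 0 could not be made whole. Ctsk, the protease of osteoclasts, changed by 1.06 as deposited and 1.46 after it (limma, adjusted p = 0.00389). It was then at 176 and 153 normalized CPM at day 0 and at 462 and 442 at day 12. Adgre1, below the minimum as deposited, was then at 6.78 and 16 at day 0 and at 158 and 138 at day 12. The day 12 values of Acp5 became whole with neither multiplication. Cd68 and Atp6v0d2, whose values were whole, rose by 3.52 ± 0.34 and 3.39 ± 0.50.

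Complement and stromal chemokine genes were higher for 12 of 17 and lower for 0 (median 2.56). Of the 12, 4 met the minimum only at day 12, and 8 of the 12 genes that met it at both days were higher (median 2.06). Cxcl12, the chemokine that holds blood stem cells near bone, was at 33.2 and 60.4 normalized CPM at day 0 and at 1916 and 1756 at day 12. It rose by 5.32 ± 0.26 (limma, adjusted p = 1.91e-05), with all values of day 12 above those of day 0. The complement inhibitor Serping1 was at 6.41 and 5.8 normalized CPM at day 0 and at 227 and 219.9 at day 12, a change of 4.98 ± 0.20, and C3 itself rose by 5.44 ± 0.39. In the MHC list 8 of 14 genes were higher and 0 lower (median 1.30). B2m, the light chain of class I molecules, rose by 1.30 ± 0.20 and the class I heavy chains H2-K1 and H2-D1, which are near copies, by 2.38 ± 0.30 and 2.36 ± 0.24.

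Adipocyte genes were higher for 13 of 20 and lower for 0 (median 1.93), and 8 of the 13 met the minimum only at day 12, while 5 of the 12 that met it at both days were higher (median 0.72). Lpl, lipoprotein lipase, was at 30.5 and 37.2 normalized CPM at day 0 and at 369 and 355 at day 12. It rose by 3.39 ± 0.17 (limma, adjusted p = 2.1e-05) in both libraries. Pparg and Cebpa, the factors that drive fat cells, rose by 1.74 ± 0.30 and 2.27 ± 0.20. Adipoq, the fat hormone adiponectin, had 0 and 0 reads at day 0 and 18 and 30 at day 12, at least 8.95-fold higher, and the lipid droplet coat Plin1 was at least 11.5-fold higher. Fasn, the fatty acid synthase, changed by -0.44 ± 0.27 and did not pass. Without day 12 replicate 2, 8 genes of the list were higher.

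Cartilage genes went both ways, 7 (50%) higher and 3 (21.4%) lower of 14 (median 0.68), beside 12.1% and 4.82% of all genes. Of the 12 that met the minimum at both days 6 were higher and 2 lower. Matn4, a matrix adaptor protein, was at 32.8 and 61.4 normalized CPM at day 0 and at 2039 and 1754 at day 12, a change of 5.36 ± 0.29 (limma, adjusted p = 2.43e-05), and Comp and Col9a2 rose by 4.12 ± 0.26 and 3.28 ± 0.31. Col10a1, the collagen of hypertrophic chondrocytes, rose by 2.37 ± 0.39. Col2a1, the main collagen of cartilage, was at 3577 and 1808 normalized CPM at day 0 and at 748 and 651 at day 12, a lower level with a change of -1.86 ± 0.38, and the proteoglycan Acan and the lubricant Prg4 fell, with changes of -1.56 ± 0.37 and -2.90 ± 0.53. The count of higher cartilage genes was 4 or 5 when any Def6-/- library was left out. Mmp13, a collagenase of hypertrophic cartilage and bone, was at 85.2 and 146 normalized CPM at day 0 and at 787 and 648 at day 12. It rose by 2.67 ± 0.28, as did Mmp14 (0.62 ± 0.17) and Mmp23 (1.80 ± 0.18), while the inhibitor Timp3 fell (-0.92 ± 0.17), and these were the 4 calls among 18 matrix metalloproteinases and inhibitors (median 0.55). The shares of 16.7% higher and 5.56% lower in that list were near the 12.1% and 4.82% of all genes. All 18 met the minimum at both days, where 953 of 11006 genes were higher and 522 lower.

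Egfl6, an EGF-domain protein of the extracellular matrix, was at 13.6 and 13.3 normalized CPM at day 0 and at 531 and 591 at day 12, and had the smallest p of all genes, with a change of 5.28 ± 0.18 (limma, adjusted p = 4.58e-06). Penk, the opioid precursor proenkephalin, was at 4.9 and 7.51 normalized CPM at day 0 and at 587 and 581 at day 12 and Steap4, a metalloreductase, at 0 and 0.682 normalized CPM at day 0 and at 162 and 154 at day 12. They changed by 6.37 ± 0.29 and 6.94 ± 0.34, with both libraries of a day close together. Among genes that fell, the class 3 semaphorin Sema3e was at 124 and 146 normalized CPM at day 0 and at 6.99 and 5.99 at day 12, a change of -4.18 ± 0.26 (limma, adjusted p = 4.01e-05). Ptprn, a protein of secretory granules, changed by -4.40 ± 0.34, the EGF-like ligand Hbegf by -3.21 ± 0.60, and Ptgs2, the inducible cyclooxygenase, by -3.21 ± 0.91, and all 3 fell.

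**Figure D4:**
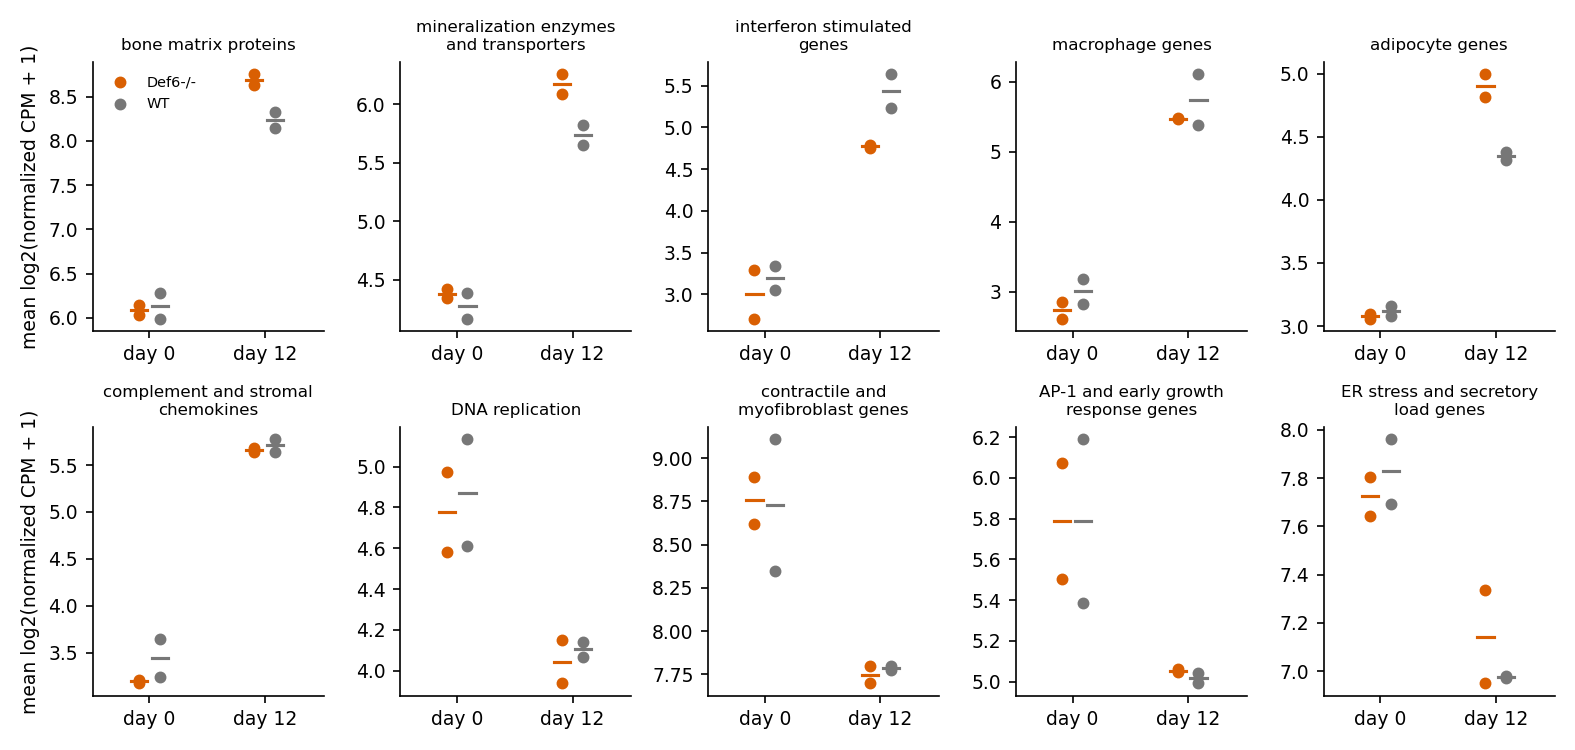
Mean log2(normalized CPM + 1) over the genes of 10 lists (y axis, with its own range in each panel) in each library at day 0 and day 12, orange for Def6-/- and grey for WT, with bars for the means of 2 libraries. In all panels the Def6-/- libraries of the 2 days do not overlap. The WT libraries of day 0 lie farther apart than the Def6-/- ones of that day in every panel except that of interferon stimulated genes.

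Most of these changes had the same direction in WT cells. Of the genes described, 1522 (12.5%) were higher and 691 (5.67%) lower at day 12 in WT cells. Of the genes called higher in Def6-/- cells 82.6% were also called higher in WT, and 70.6% of the lower ones were also called lower, against 79.9% and 60.1% the other way. These shares cover only genes chosen by their level in Def6-/- cells. Of the 2060 genes called in Def6-/- cells 2054 changed in the same direction in WT, and 0 were called in opposite directions. Across genes, which are not replicates, the changes of both genotypes had a correlation of 0.909.

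A test of the difference itself, the change in Def6-/- cells minus the change in WT cells, gave 0 genes at an adjusted p under 0.05 (limma, smallest adjusted p 0.9996), which is 0% of the genes described. At an unadjusted p under 0.05, 129 genes differed (1.06%), 82 with a larger change in Def6-/- cells and 47 with a smaller. The genes were chosen by their level in Def6-/- cells alone, so the choice itself can tilt this split. The quasi-likelihood test of edgeR and DESeq2 gave 0 genes as well, with 136 and 42 at an unadjusted p under 0.05. The count of 0 held when any other library was left out, but not without replicate 2 of WT day 0. The pair of WT day 0 libraries was the least alike. Within that pair replicate 1, the one then kept alone, stood apart. Its ribosomal protein list summed to 33538 normalized CPM, against 10246 to 16609 in the other libraries, its oxidative phosphorylation list to 8250.2 against 4214 to 4834, and 34.9% of its reads were not unique against 21.4% to 26.6%. The part of this library in the genes that differed without replicate 2 was not tested.

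Values for the difference are therefore given as a description. In the bone matrix list 3 of 28 genes, Col22a1, Bglap and Bglap2, had an unadjusted limma p under 0.05 for the difference, beside 1.06% of all genes. The changes were 5.15 in Def6-/- against 2.78 in WT for Col22a1 and 4.12 against 2.98 for Bglap. The median difference over that list was 0.27. For Alpl the changes were 4.45 and 3.65, and for Sost 2.69 and 0.33. In the adipocyte list 3 of 20 genes, Plin1, Adipoq and Cfd, had such a p, with 3.79 against 1.83 for Plin1. The median difference over the adipocyte list was 0.48. The 5 of 61 interferon stimulated genes with such a p had the smaller change in Def6-/- cells. They were Uba7, Sp100, Ifi47 and, named after their values were seen, Rtp4 and Gbp3. The median difference over the interferon list was -0.45. Ifit1 changed by 3.41 in Def6-/- and 3.59 in WT, and Irf7 by 2.22 and 2.36. Outside the lists, H2-T24 changed by 2.79 in Def6-/- and 0.33 in WT cells, Kcnk1 by 2.63 and 1.04, and the thyroid hormone receptor Thrb by 0.68 and 2.38.

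**Figure D5:**
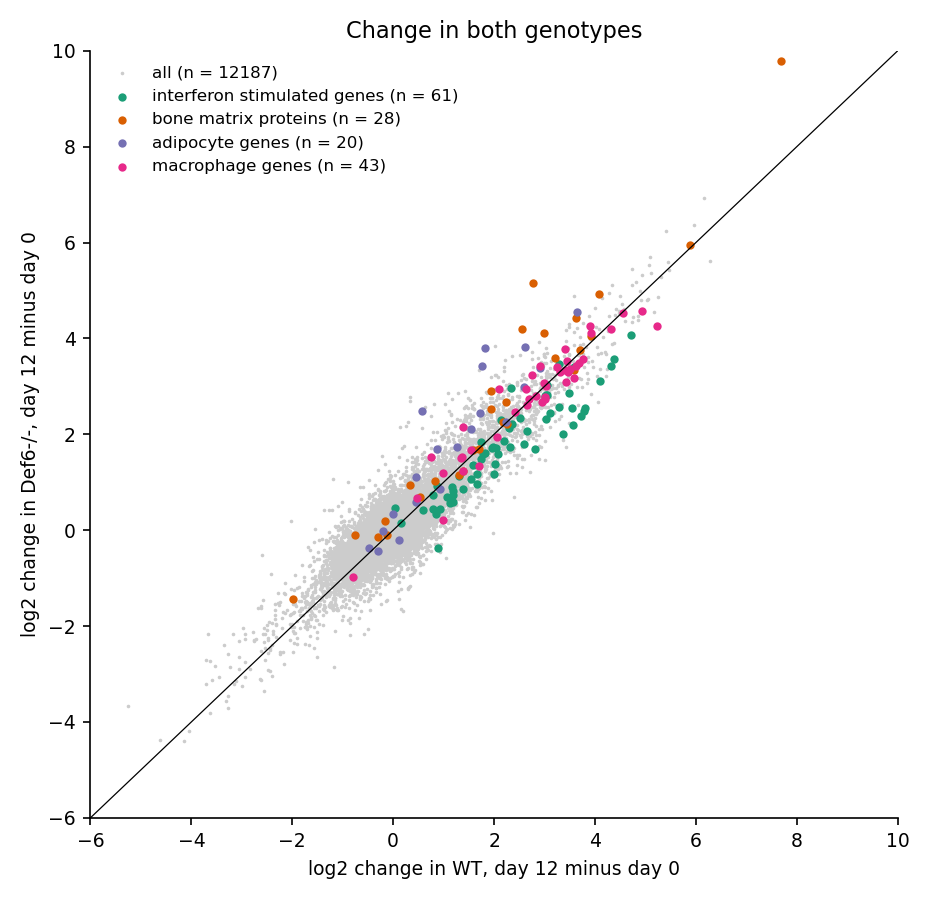
Change between day 12 and day 0 in Def6-/- cells (y axis, log2) against that in WT cells (x axis, log2) for 12187 genes in grey, with 4 lists in color. The black line marks equal change, and most green points of interferon stimulated genes lie below it.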

How the data were processed

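The deposited values are CPM, which the authors made with edgeR from reads trimmed by fastp, aligned by HISAT2 to mm10 and counted per gene by HTSeq, per the labels and the study's methods (versions not given in the sources used here). Of 114821 positive values 99.957% equalled whole reads within 0.01 reads, the others being of 9 marker genes. Rows that name no gene were left out, so that genes held 28.8% to 35.3% of the reads. Genes with a mean of at least 1 CPM in any of the 4 groups (12348) were scaled by TMM (edgeR 4.0.16) and fitted as log2(normalized CPM + 1) over 8 libraries with limma 3.58.1 (R 4.3.3, trend), with Benjamini-Hochberg adjustment and 4 residual degrees of freedom. On the recovered reads, edgeR's quasi-likelihood test called 1427 genes higher and 548 lower, and DESeq2 1.42.0 called 1276 and 479. On simulated counts of 12135 genes for this comparison 85.7% of genes changed 4-fold and 28.9% of those changed 2-fold were recovered. In that simulation all groups varied alike and 200 genes changed. The rates therefore do not carry over to these data, where the WT libraries of day 0 were more uneven than the other groups. Genes named are core members of the lists, up to 8 others of each list and direction with the smallest p, the 15 of smallest p and of largest change per direction among called genes whose days do not overlap, those the study names, and up to 10 per direction of smallest interaction p. The genes and lists were chosen with earlier results of these data known. No column of the files was without a sample. Some genes under this rule are not reported here.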

Additional observations from a re-analysis of the deposited data

How the results depend on the processing

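The main counts were 1472 genes higher and 588 lower, and 0 whose change differed between genotypes. With the 4 Def6-/- libraries alone, 2245 were higher and 1643 lower, and these held all 2060 genes of the main calls. Leaving out 1 library at a time gave 752 to 2444 higher, 125 to 1862 lower and 0 to 1281 that differed between genotypes, the last without WT day 0 replicate 2. The cause was not tested. Where this left a group with 1 library, that library was assumed to vary like the other groups. With TMM factors from all genes, chosen after seeing the data, 1352 were higher and 765 lower (63.9% of calls higher, against 71.5%), and the other scalings, filters and pseudocounts gave 1091 to 1489 higher and 438 to 633 lower. Among 483 named genes none reversed under these settings, and the calls lost among them were 79 and 56 without Def6-/- day 0 replicates 1 and 2, 67 and 74 without day 12 replicates 1 and 2, and 28 and 27 without WT day 12 replicates 1 and 2. After seeing the data, the marker values that were not whole reads were also multiplied, which turned Csf1r to 2.36 and Cd14 to 2.61 on the log2 scale. The replicate numbers are shared by the days only as numbers. Same-numbered Def6-/- libraries deviated from their group means with a correlation of 0.169 over 9598 genes and WT ones with 0.101, and with the replicate number as a block 1444 genes were higher and 510 lower. Between 2414856 and 2781030 reads on genes per Def6-/- library and 2 libraries a group limit what can be seen of genes near 1 CPM.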

Other observations

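Some genes that no list holds moved as far as the bone matrix genes did. Marco, a scavenger receptor of macrophages, was at 4.52 and 4.78 normalized CPM at day 0 and at 219.7 and 349.9 at day 12, and Lyz1, a near copy of Lyz2 with which reads can be shared, at 0 and 0.341 normalized CPM at day 0 and at 99.6 and 74.4 at day 12. They rose by 5.62 ± 0.67 and 6.23 ± 0.39 (limma, adjusted p = 0.000784 and 4.01e-05). Apoe, the lipid carrier of macrophages and other cells, was at 37.7 and 55.3 normalized CPM at day 0 and at 1497 and 1128 at day 12, a rise in both libraries by 4.80 ± 0.28. Clu, the extracellular chaperone clusterin, rose by 3.25 ± 0.17, and Gdf10, a ligand of the TGF-β family, by 3.86 ± 0.20. Ndufa4l2, a mitochondrial protein induced in low oxygen, rose by 5.59 ± 0.60. Tspan8, a tetraspanin, had 0 and 0 reads at day 0 and 132 and 76 at day 12, at least 38.4-fold higher.

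Among genes that fell, Slc7a3 and Slc7a5 carry amino acids into cells. Slc7a3 was at 34.7 and 27 normalized CPM at day 0 and at 3.29 and 0.428 at day 12, and Slc7a5 at 663 and 591 normalized CPM at day 0 and at 151 and 32.5 at day 12. Their changes were -3.67 ± 0.50 and -3.13 ± 0.56 (limma, adjusted p = 0.00143 and 0.00567), and for Slc7a5 the libraries of day 12 differed from each other as those of Asns, Trib3 and Chac1 did. Pkp2, a desmosome protein, changed by -3.71 ± 0.49 and fell. Axl, a receptor kinase that binds Gas6, was at 510.0 and 438 normalized CPM at day 0 and at 153 and 160.0 at day 12, a change of -1.59 ± 0.17, and Ltbp1, which holds latent TGF-β in the matrix, fell as well (-1.78 ± 0.20).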
